A study of Mus musculus with 6 samples.

Results

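The genes described here are 32 lysosomal genes of the mouse, comprising soluble hydrolases, their activators and luminal cofactors, lysosomal membrane proteins, and subunits of the vacuolar proton pump (V-ATPase). They were taken from a list of gene symbols, and each gene was read from 1 probe, the probe whose RefSeq accession names it and whose mean log2 processed signal over the arrays was highest. All 32 had a probe, among 22911 named genes with a probe on the array. Of the 32, 29 passed the filter on dim probes and entered the comparison, in which 4488 genes were tested in all. The 4488 include probes without a gene name, and 3276 of them carry a name.

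The cells were C5aR+ LysoDCs, lysozyme-expressing dendritic cells of the Peyer's patch that carry the receptor for the complement fragment C5a. They were obtained from mouse Peyer's patches by enrichment on CD11c beads followed by sorting, and were cultured in medium with CSF-1 and a factor that the labels spell CFS-2. The untreated group was 3 samples at 0 nM C5a, and the C5a group was 3 samples that received 100 nM recombinant C5a for 3 h. Each sample was hybridised to 1 Agilent array in 1 colour. The labels give no strain, age or sex, no culture time for the untreated cells, and no separate animal or cell preparation for each replicate. The p-values below rest only on the spread among these 6 samples, and part of that spread may be technical. In such bulk samples fewer cells of a type and less RNA per cell cannot be told apart.

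Lysosomes are acidic compartments in which proteins, lipids and glycans taken up from outside or sorted from inside the cell are broken down. The V-ATPase pumps protons into their lumen, and most of the luminal hydrolases work best at the acidic pH that results. In phagocytes of the Peyer's patch, lysosomes digest captured particles and microbes and supply peptides to the antigen-presenting machinery. Many lysosomal genes carry copies of a short palindrome near their start sites, known as the CLEAR element, to which the transcription factor TFEB and its relatives bind.

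Both groups had the same order of detection by replicate number, with number 2 highest and number 3 lowest. Between 2727 and 6959 of 56605 probes were well above background on an array. The 75th percentile of the processed signal over the detected probes lay between 109 and 460, lowest in untreated 3 and highest in untreated 2, and no spot was saturated. Among 19 marker genes of LysoDCs and mononuclear phagocytes, 14 passed the filter, and 12 of these were detected on each of the 6 arrays, among them Lyz1, Lyz2, Itgax, Itgam, Csf1r and Cd74. Here and below, a gene is detected on an array where its probe was well above background. Mertk, Fcgr1, Cx3cr1 and Cd4 were among those detected on none. The neutrophil, mast cell, stromal and erythroid lists were detected on no array, and neither were Cd3e, Cd3d, Cd3g and Cd8a of the T cell list. Of the plasmacytoid dendritic cell list 4 of 5 genes passed the filter, of the B cell list 1 of 8 (Cd79b), of the T cell list 1 of 7 (Il7r), of the plasma cell list 2 of 5 (Prdm1 and Xbp1), of the conventional dendritic cell list 1 of 8 (Ccr7) and of the epithelial list 0 of 9.

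Short motifs near the gene starts are described first. RefSeq promoter windows of 300 bases (250 before and 50 after the gene start, assembly GRCm38.p6) were matched for 28 of the 32 genes and were not matched for Asah1, Atp6v1b2, Atp6v1h and Npc1. Shares were counted by gene, and a gene counted where any of its windows held the motif. The core palindrome CACGTG was present in 8 of the 28 genes (28.6%), against 13.6% of 2658 tested genes and 8.09% of all 27025 genes with a window. The longer motif TCACGTG, searched on both strands and containing that core, was present in the same 8 genes (28.6%), against 8.99% and 4.29%. Its palindromic form TCACGTGA was present in 5 (17.9%), against 2.93% and 1.12%, and GTCACGTGAC in 0, against 0.941% and 0.37%. The GC-rich motif GGGCGG was present in 19 (67.9%), against 70.2% and 38.2%, and TATAAA in 3 (10.7%), against 11.1% and 15.7%. These shares are descriptions of the letters in the windows, and no test was made of them. Whether the matches act as CLEAR elements was not tested.

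The 8 genes with TCACGTG were Lamp1, Mcoln1, Gla, Glb1, Atp6v0b, Atp6v0d1, Atp6v0e and Atp6v1a, with 14 sites in all. Stretches of 100 bases upstream of the gene start are printed for 6 of them, 5′ to 3′ on the strand of the gene, because they hold the sites. The stretch ends 147 bases before the gene start for Gla and 51 bases before it for Atp6v1a. The others end directly before the gene start. The sites are in capitals, and CACGTGA is TCACGTG read on the other strand. The stretches are chr8:13159061-13159160 (plus strand) for Lamp1, chr8:3500419-3500518 (plus) for Mcoln1, chrX:134601153-134601252 (minus) for Gla, chr9:114400978-114401077 (plus) for Glb1, chr4:117887330-117887429 (minus) for Atp6v0b and chr16:44139311-44139410 (minus) for Atp6v1a, all on GRCm38.p6.
Lamp1: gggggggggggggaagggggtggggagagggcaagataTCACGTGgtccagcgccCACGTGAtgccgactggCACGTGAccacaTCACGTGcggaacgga
Mcoln1: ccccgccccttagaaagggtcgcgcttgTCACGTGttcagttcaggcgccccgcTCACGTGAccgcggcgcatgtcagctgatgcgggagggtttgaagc
Gla: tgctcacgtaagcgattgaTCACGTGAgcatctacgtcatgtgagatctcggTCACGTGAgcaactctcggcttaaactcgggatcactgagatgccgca
Glb1: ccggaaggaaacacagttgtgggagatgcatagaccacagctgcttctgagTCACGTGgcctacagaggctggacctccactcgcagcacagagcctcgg
Atp6v0b: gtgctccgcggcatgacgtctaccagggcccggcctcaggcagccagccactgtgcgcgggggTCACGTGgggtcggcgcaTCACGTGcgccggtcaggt
Atp6v1a: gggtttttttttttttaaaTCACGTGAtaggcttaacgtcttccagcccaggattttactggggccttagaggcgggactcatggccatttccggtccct

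Lamp1 had 4 sites in these bases, at positions -61, -45, -28 and -15 from the gene start (first base of the core). Mcoln1, Gla and Atp6v0b had 2 each, and Glb1 and Atp6v1a had 1. The sites of Gla were further out, at -227 and -194, as was that of Atp6v1a, at -131. The sites of Atp6v0d1 (position -3) and Atp6v0e (position 3) lie at the gene start and are not printed.

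The 32 lysosomal genes, chosen with earlier results of these data known, were detected more widely than the probes at large. Of all 56605 probes, 2370 were detected on all 6 arrays and 48672 on none. That count takes every probe, with or without a gene name, while each of the 32 genes is read from its brightest probe. The counts are therefore not alike. By gene, with unnamed probes included, 2182 of 46522 had a probe detected on all 6 arrays. Of the 32 genes, 20 were detected on all 6 arrays, 3 on 5, 4 on 4, 2 on 3, 2 on 2 and 1 on 1. By array, untreated 1, 2 and 3 detected 25, 32 and 20 of them, and C5a 1, 2 and 3 detected 29, 31 and 25. The array with the lowest signal, untreated 3, had the fewest, and those with the highest, untreated 2 and C5a 2, had the most. Lamp2, Neu1 and Ppt1 were missed on untreated 3 alone. Asah1 and Scarb2 were missed on untreated 1 and 3, Laptm4a and Atp6v0d1 on untreated 3 and C5a 3, and Gm2a and Glb1 on untreated 1, untreated 3 and C5a 3. Whether the array signal accounts for these differences in detection was not tested.

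Values are given below as the level, the log2 processed signal less the array's 75th percentile over the probes detected on all 6 arrays. Ranks are of probe brightness among the 4488 tested genes of an array and do not order the genes by transcript amount, because probes differ in how strongly they hybridise. Cd63, a tetraspanin of late endosomes and lysosomes, and Lamp1, a heavily glycosylated protein of the lysosomal membrane, had the brightest probes, at percentiles 93.5 to 97.4 and 96.1 to 98.4. They were followed by Grn (87.2 to 94.6), Atp6v0c (88.3 to 92.8), Atp6v1b2 (88.9 to 92.1), Cd68 (87.7 to 93.1) and Psap (82.8 to 90.3), and these 7 stayed above the 80th percentile on all 6 arrays. Gm2a had the lowest mean level of the 29, at percentiles 9.69 to 18.7, although Asah1 was dimmer on untreated 1 and 2. The Gm2a probe was detected on 3 of the 6 arrays, so its rank on the others lies within the background. The ranges of Cd63 and Lamp1 overlapped, as did those of Cd63 and Grn and of neighbours in the order from Grn to Psap, and Grn was the brighter of Cd63 and Grn on both arrays of replicate 3. Those places in the order are not settled by these arrays. Over the 29 genes the median percentile was 66.3, and their median level in untreated 1 to 3 was -1.91, -1.53 and -2.09 and in C5a 1 to 3 it was -1.77, -1.78 and -1.84, against -2.66 to -2.55 for all tested genes.

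**Figure D1:**
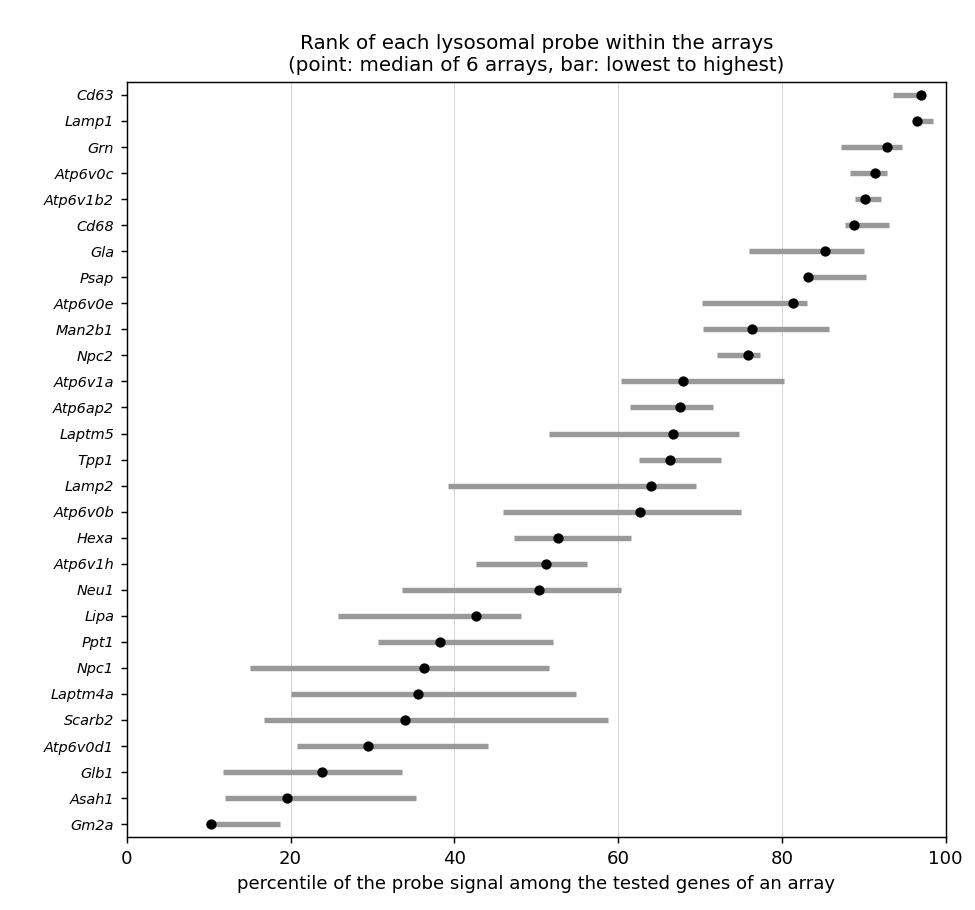
Percentile of each lysosomal gene's probe signal among the 4488 tested genes of an array, with the median of the 6 arrays as a point and the lowest to highest array as a bar. Cd63 and Lamp1 lie between percentiles 93.5 and 98.4 on every array, while Gm2a lies between 9.69 and 18.7.

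None of the 29 tested genes differed between C5a and untreated samples after adjustment over all genes (limma, Benjamini-Hochberg, lowest adjusted p = 0.9992). The same held for all 4488 genes, of which 0 (0.0%) were called. At an unadjusted limma p under 0.05 there were 2 of the 29 (6.9%), Laptm4a and Npc1, against 105 of the 4488 (2.34%). The median difference over the 29 was -0.04 on the log2 scale, against 0.04 over all genes, with 14 differences above 0 and 15 below, and 11 of these signs turned when arrays were scaled to the 75th percentile over all probes, which moved the median of all genes by 0.36. The standard error of a difference had a median of 0.34 over the 29 and 0.37 over all genes. The 95% interval of a gene's difference reached 0.79 to each side in the median, a 1.73-fold change, and between 0.61 and 1.27 over the 29, so a smaller change lies within the interval of a typical gene with 3 arrays a group. These intervals are not adjusted for the number of genes.

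**Figure D2:**
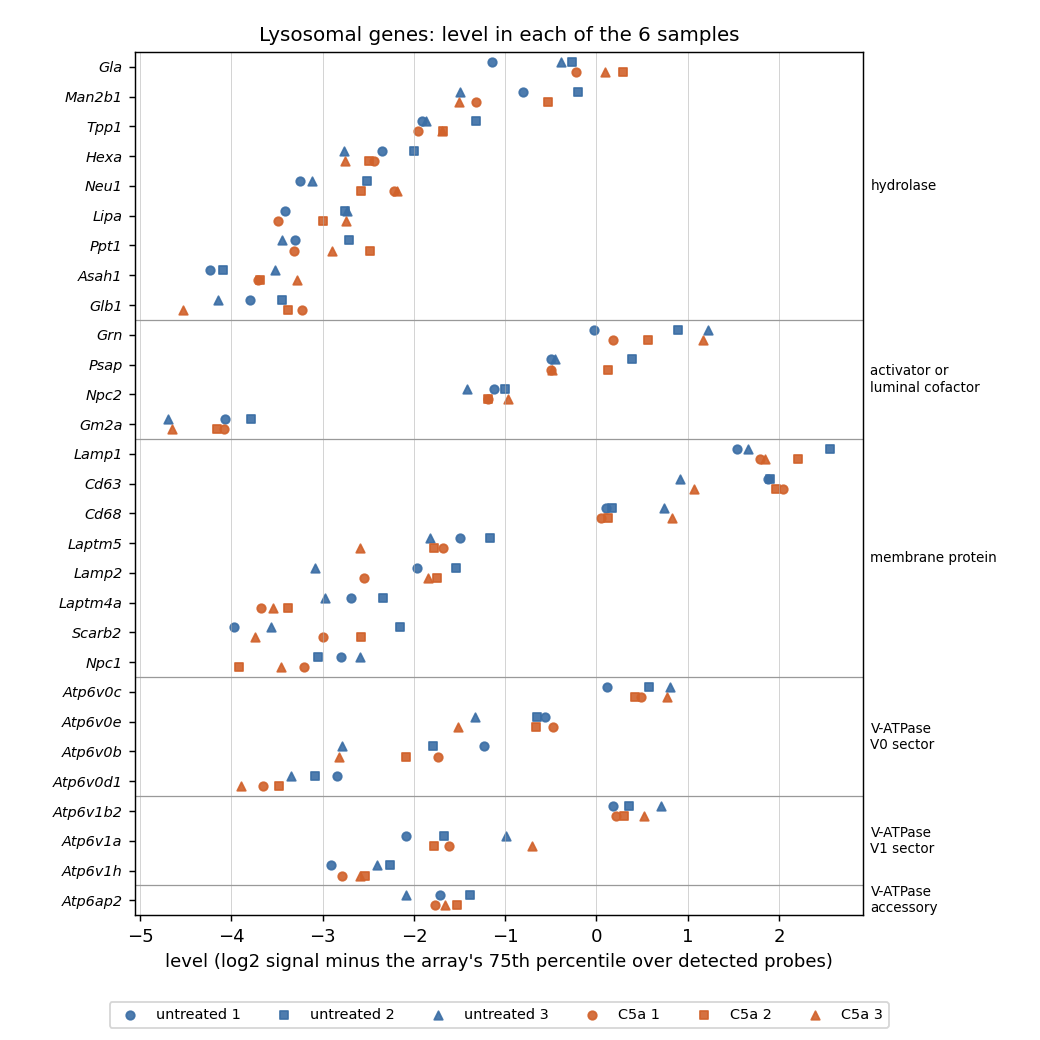
Level of the 29 tested lysosomal genes in each of the 6 samples, on a log2 scale relative to the array's 75th percentile over detected probes, ordered by role and mean level. Blue symbols are untreated and orange symbols C5a samples, and the shape gives the replicate number. In 25 of the 29 genes the C5a and untreated symbols overlap.

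Of the 10 hydrolases 5 were detected on all 6 arrays and 9 were tested. Their differences had a median of 0.09, with 5 above 0 and 4 below. Gla, which encodes alpha-galactosidase A, the enzyme that removes terminal galactose from glycosphingolipids, had levels of -1.15, -0.27 and -0.39 in the untreated samples, in order of replicate number, and of -0.23, 0.29 and 0.09 in the C5a samples. All 3 C5a samples lay above all 3 untreated samples, although C5a 1 and untreated 2 were close to each other. The difference was 0.66 (SE 0.33, 95% interval -0.13 to 1.44, 1.58-fold), with an unadjusted limma p of 0.0884 and an adjusted p of 0.9992. It was 0.38 without untreated replicate 1, the lowest of the 6 samples, and 0.38 with the row of the slide as a covariate, which compares C5a 1 with the untreated samples of its own row.

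Neu1, the lysosomal sialidase, had levels of -3.25, -2.52 and -3.12 in untreated samples and -2.22, -2.57 and -2.18 in C5a samples. C5a 1 and C5a 3 were the highest samples, and C5a 2 lay just under untreated 2, so that the groups overlapped. The difference was 0.64 (SE 0.30, 95% interval -0.08 to 1.35), with an unadjusted limma p of 0.0736 and an adjusted p of 0.9992. With a normexp background correction it was -0.09, so the direction of Neu1 is not settled by these arrays.

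The other 7 tested hydrolases had differences between -0.29 and 0.39, and their groups overlapped. Man2b1, an alpha-mannosidase of glycoprotein breakdown, had levels of -0.81, -0.20 and -1.49 in untreated samples and -1.33, -0.53 and -1.51 in C5a samples. Both groups had their highest sample in replicate 2 and their lowest in replicate 3. Asah1, acid ceramidase, had the highest difference of the 7, with a mean of -3.94 ± 0.38 (SD, n = 3) in untreated and -3.56 ± 0.24 (SD, n = 3) in C5a samples. Tpp1, a tripeptidyl peptidase, averaged -1.70 ± 0.33 and -1.77 ± 0.15 (SD, n = 3 each, untreated and C5a in this and the following sentences). Hexa, the alpha subunit of beta-hexosaminidase, averaged -2.37 ± 0.38 and -2.56 ± 0.17. The untreated SD exceeded the difference for Tpp1 and Hexa and was close to it for Asah1. Lipa, the acid lipase that frees cholesterol from its esters, averaged -2.97 ± 0.39 and -3.08 ± 0.38. Ppt1, which removes palmitate from proteins, averaged -3.15 ± 0.39 and -2.90 ± 0.42. Glb1, beta-galactosidase, averaged -3.80 ± 0.35 and -3.71 ± 0.71. Gusb, beta-glucuronidase, was not tested, as its probe was detected on untreated 2 and C5a 2 alone. Its levels ran from -4.20 to -3.36 in untreated and from -5.37 to -3.79 in C5a samples.

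The 4 activators and luminal cofactors passed the filter, 3 of them on all 6 arrays, and their differences had a median of -0.08 and lay between -0.11 and 0.06. Psap, the precursor of the saposins that present sphingolipids to hydrolases, had levels of -0.49, 0.39 and -0.45 in untreated and -0.50, 0.12 and -0.49 in C5a samples. Its values split by replicate number, with replicate 2 high in both groups, and did not separate C5a from untreated samples. Grn, which encodes progranulin, the precursor of the lysosomal granulins, had levels of -0.02, 0.89 and 1.22 in untreated and 0.18, 0.56 and 1.17 in C5a samples. In Grn replicate 3 was the highest and replicate 1 the lowest in both groups. Npc2, which carries cholesterol in the lumen, was the steadiest of the 4, at -1.18 ± 0.21 and -1.12 ± 0.12 (SD, n = 3 each), with a 95% interval of its difference from -0.55 to 0.67. Gm2a, the activator of ganglioside breakdown, averaged -4.18 ± 0.46 and -4.29 ± 0.31.

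Among the 9 membrane proteins 8 were tested, 5 of them detected on all 6 arrays, and the median difference was 0.02. Lamp1 had levels of 1.54, 2.56 and 1.66 in untreated and 1.79, 2.20 and 1.84 in C5a samples, a difference of 0.03 (95% interval -0.80 to 0.86). Untreated 2 was the highest sample and untreated 1 the lowest, with all C5a samples between them. Cd63 had levels of 1.88, 1.90 and 0.92 in untreated and 2.05, 1.97 and 1.07 in C5a samples. Its difference was 0.13, and replicate 3 was the low sample of both groups. Cd68, a lysosomal glycoprotein of macrophages and related phagocytes, had levels of 0.11, 0.17 and 0.74 in untreated and 0.05, 0.13 and 0.83 in C5a samples. Here replicate 3 was the high sample of both groups, and the difference rounded to 0.00 (95% interval -0.79 to 0.79). Lamp2, which also takes part in chaperone-mediated autophagy, averaged -2.20 ± 0.80 and -2.04 ± 0.44 (SD, n = 3 each). Scarb2, which carries glucocerebrosidase to lysosomes, averaged -3.23 ± 0.96 and -3.10 ± 0.59, the widest untreated spread of the 29 genes.

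Laptm4a and Laptm5, transmembrane proteins of the LAPTM family, had lower mean levels in C5a samples, and neither passed the test. Laptm4a had levels of -2.69, -2.34 and -2.98 in untreated samples and -3.68, -3.38 and -3.55 in C5a samples. Every C5a sample lay below every untreated sample, and the gap between the nearest of them was wider than the range of the C5a group. The difference was -0.87 (SE 0.28, 95% interval -1.53 to -0.21, 1.82-fold lower), with the lowest unadjusted limma p of the 29 genes, 0.0172, and an adjusted p of 0.9992. The probe was not detected on untreated 3 and C5a 3. Laptm5, a regulator of receptor degradation in leukocytes, had levels of -1.50, -1.16 and -1.83 in untreated and -1.68, -1.78 and -2.59 in C5a samples. C5a 3 was the lowest and the groups overlapped, with a difference of -0.52 (95% interval -1.34 to 0.31).

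Npc1, the membrane protein that passes cholesterol out of the lysosome, had levels of -2.80, -3.05 and -2.59 in untreated samples and -3.20, -3.92 and -3.46 in C5a samples. The groups did not overlap, with C5a 1 close under untreated 2. The difference was -0.71 (SE 0.30, 95% interval -1.42 to -0.01, 1.64-fold lower), with an unadjusted limma p of 0.0489 and an adjusted p of 0.9992. With the row of the slide as a covariate it was -0.39. Mcoln1, the lysosomal cation channel TRPML1, was detected on untreated 2 and C5a 2 alone, so it was not tested. Its levels were -5.64, -4.62 and -4.60 in untreated and -4.89, -4.21 and -3.72 in C5a samples, most of them within the background of their array.

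The V-ATPase has a membrane sector, V0, through which protons pass, and a cytosolic sector, V1, which splits ATP. Of 9 pump genes 8 were tested and 7 were detected on all 6 arrays. Their differences had a median of -0.05, with 3 above 0 and 5 below. In V0, Atp6v0c, the main subunit of the proton-carrying ring, had levels of 0.12, 0.58 and 0.81 in untreated and 0.49, 0.42 and 0.78 in C5a samples. The values of the groups interleaved, and the difference was 0.06 (95% interval -0.63 to 0.75). Atp6v0b, another ring subunit, had levels of -1.24, -1.79 and -2.79 in untreated and -1.74, -2.09 and -2.82 in C5a samples. Atp6v0e, a small subunit of the sector, had levels of -0.56, -0.65 and -1.33 in untreated and -0.47, -0.66 and -1.52 in C5a samples. Both had replicate 3 lowest in each group, with differences of -0.28 and -0.04.

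Atp6v0d1, the V0 subunit that couples the sectors, had levels of -2.84, -3.08 and -3.35 in untreated and -3.66, -3.48 and -3.89 in C5a samples. All C5a samples lay below all untreated samples, C5a 2 closest to untreated 3. The difference was -0.59 (SE 0.28, 95% interval -1.23 to 0.06, 1.50-fold lower), with an unadjusted limma p of 0.0694 and an adjusted p of 0.9992. The probe was not detected on untreated 3 and C5a 3, the same arrays as for Laptm4a.

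In V1, Atp6v1b2, a subunit of the ATP-binding head, had levels of 0.18, 0.35 and 0.71 in untreated and 0.21, 0.30 and 0.52 in C5a samples, a difference of -0.07. Its SDs of 0.27 and 0.16 (n = 3 each) were among the smaller of the 29, and its 95% interval ran from -0.71 to 0.57. Atp6v1a, the catalytic subunit, had levels of -2.08, -1.67 and -0.99 in untreated and -1.62, -1.78 and -0.71 in C5a samples. Replicate 3 was the highest sample of both groups. Atp6v1h, a regulatory subunit, averaged -2.52 ± 0.34 and -2.64 ± 0.13 (SD, n = 3 each). The accessory protein Atp6ap2, also known as the prorenin receptor, averaged -1.73 ± 0.35 and -1.65 ± 0.12. Atp6ap1, the other accessory protein, was detected on untreated 2 alone and was not well above background on the C5a arrays, so no fold is given. Its levels were -5.57, -4.14 and -5.07 in untreated and -6.26, -6.54 and -6.06 in C5a samples. Except on untreated 2 they lie within the background of their array.

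**Figure D3:**
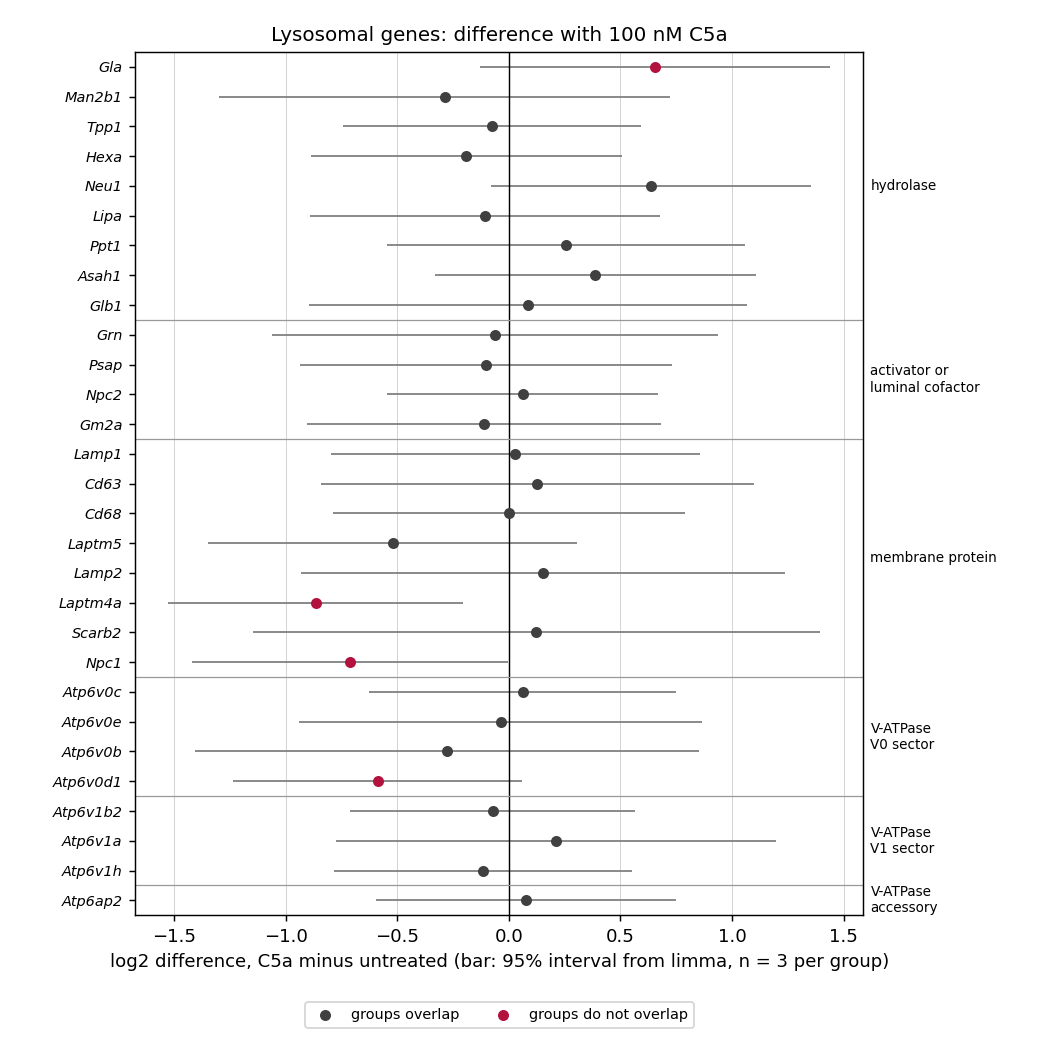
Difference between C5a and untreated samples for the 29 tested lysosomal genes on a log2 scale, with the 95% interval from limma as a bar (n = 3 per group) and genes ordered by role. The intervals of Laptm4a and Npc1 lie below 0 before adjustment, and the interval of every other gene includes 0.

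The groups did not overlap in 4 of the 29 genes (13.8%), against 255 of 4488 genes (5.68%). Npc1, Laptm4a and Atp6v0d1 were lower in all C5a samples, as were 104 of all genes (2.32%), and Gla was higher, as were 151 (3.36%). With arrays scaled over all probes 0 of the 29 had separate groups, against 1.11% of all genes, and the differences were then -0.50 for Laptm4a, -0.35 for Npc1, -0.22 for Atp6v0d1 and 1.02 for Gla. With normexp background correction they were -0.57 for Laptm4a, -0.42 for Npc1, -0.38 for Atp6v0d1 and 0.45 for Gla, and 2 of the 29 had separate groups, against 2.76% of all genes. The median difference of all genes was then -0.12. The other 24 genes outside these 4 and Neu1 had differences from -0.52 to 0.39, with unadjusted limma p-values of 0.18 or higher, and 22 of the 29 genes differed by less than 0.3. Of the 7 tested genes with TCACGTG in the promoter window, Gla, Lamp1, Glb1 and Atp6v1a had differences above 0 and Atp6v0b, Atp6v0d1 and Atp6v0e below 0.

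Samples with the same replicate number deviated together in each of the 3 pairs, so the comparison was also made with the replicate number as a block. The pairing rests on the same values that were then tested, and the labels do not say what a shared number means. No gene was called (lowest adjusted p = 0.9259 for limma, over the 29 and over all genes). An unadjusted p under 0.05 was found in 4 of the 29 (13.8%) against 190 of all genes (4.23%). This count did not hold under other settings. With the slide row as a covariate in limma it was 0 of the 29, against 175 of 4488 genes. It was also 0 with scaling over all probes (37 of all genes) and with normexp correction (26). With quantile normalization it was 1 (119 of all genes). In the fit with the block, the unadjusted limma p was 0.0135 for Laptm4a, 0.0284 for Npc1, 0.0339 for Gla and 0.0464 for Atp6v0d1, and the adjusted p of each was 0.9259. By replicate number 1, 2 and 3, the C5a sample differed from its untreated partner by -0.99, -1.04 and -0.57 for Laptm4a and by -0.40, -0.87 and -0.87 for Npc1. The same differences were -0.82, -0.40 and -0.55 for Atp6v0d1 and 0.92, 0.56 and 0.49 for Gla. For Neu1 they were 1.04, -0.06 and 0.93, with replicate 2 apart from the others.

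Levels of these genes also varied with the replicate number, about as much as those of all genes. The range between the means of the 3 numbers had a median of 0.70 over the 29 genes and 0.68 over all genes. In a limma fit with the number as a term, a test added after the values were seen, 6 of the 29 (20.7%) had an unadjusted p under 0.05, against 801 of all genes (17.8%), and 0 were called in either. The ranges of these 6 were 1.32 for Atp6v0b, 0.97 for Cd63, 1.14 for Man2b1, 1.12 for Grn, 1.00 for Atp6v1a and 0.91 for Atp6v0e, with unadjusted limma p-values of 0.0136, 0.0214, 0.0261, 0.0294, 0.0352 and 0.0367 in the same order. Replicate 3 was lowest in Atp6v0b, Cd63, Man2b1 and Atp6v0e and highest in Grn and Atp6v1a. The arrays of number 3 also had the lowest 75th percentile of signal in each group (109 and 154) and those of number 2 the highest (460 and 377), and the part of array signal in these ranges was not tested.

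**Figure D4:**
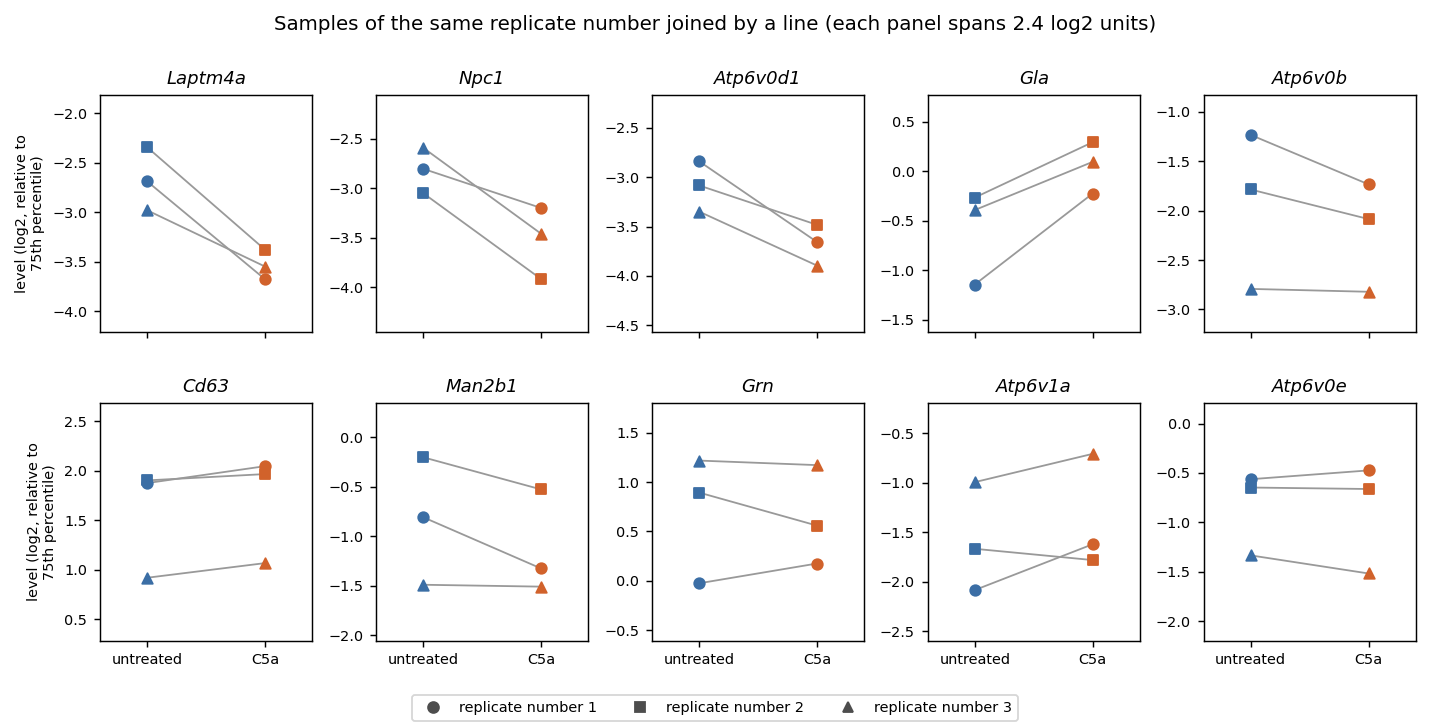
Levels of 10 lysosomal genes on a log2 scale, untreated on the left and C5a on the right of each panel, with samples of the same replicate number joined by a line. In Laptm4a, Npc1 and Atp6v0d1 all 3 lines slope down and in Gla all 3 slope up, while the 6 genes with the smallest unadjusted p for the replicate number keep replicate 3 at one end in both groups.

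A second probe tested 5 of the 29 genes again. The 32 genes had 45 probes in all, 11 of the genes had more than 1, and 5 had a second one that passed the filter. The second probe of Lamp1 gave a difference of 0.00 (SE 0.37) beside 0.03, that of Lamp2 gave -0.03 (SE 0.60) beside 0.15, and that of Cd68 gave -0.19 (SE 0.29) beside 0.00. For these 3 genes both probes gave differences smaller than their standard errors. The second probe of Grn gave 1.73 (SE 1.04) beside -0.06, with levels of -5.74, -3.39 and -1.14 in untreated and -2.05, -1.85 and -1.18 in C5a samples, in which untreated 1 was the lowest sample by far.

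The probes of Atp6v0c disagreed. The second probe, detected on all 6 arrays, had levels of -1.31, -1.24 and -1.26 in untreated and -2.43, -2.35 and -1.87 in C5a samples. The untreated values lay within a narrow band, and all C5a values lay below it. The difference was -0.95 (SE 0.27), with an unadjusted limma p of 0.00954 and an adjusted p of 0.9996 over all kept probes, against 0.06 for the brighter probe. It was -0.51 with normexp background correction and -0.59 with scaling over all probes. This probe was singled out after its values were seen. The sources used here do not say which transcripts each probe reads.

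Genes of the same organelle outside the 32 were followed in 6 further lists of 158 genes, of which 72 were tested and 0 called by limma, with 1 at an unadjusted p under 0.05. Many of the listed genes were detected on no array. These were 11 of 30 hydrolases and activators with a probe, 4 of 16 proteases and 12 of 32 membrane proteins. They were also 13 of 23 V-ATPase genes, 11 of 24 in the mTORC1 list and 9 of 32 in the delivery list. Those detected on all 6 arrays numbered 8, 10, 11, 5, 1 and 7 in the same order. Of the 72 differences 37 were above 0 and 35 below, with a median of 0.03. Among 13 tested hydrolases and activators 4 were above 0 and 9 below. Idua, an iduronidase, had -0.56 (SE 0.50).

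The proteases numbered 12 tested genes, 6 on each side of 0, with Prcp, a prolylcarboxypeptidase, at 0.65 (SE 0.50) and Ifi30, a lysosomal thiol reductase of antigen processing, at -0.28 (SE 0.30). Of the other membrane proteins and transporters 16 were tested, 8 on each side, with Tmem192 at 0.23 (SE 0.27) and Slc15a4, a histidine and peptide transporter, at -0.31 (SE 0.29). Of the other V-ATPase subunits 6 were tested, 3 on each side, with Atp6v1f at 0.24 (SE 0.29) and Atp6v1d at -0.25 (SE 0.31). Among transcription factors of lysosomal genes and the mTORC1 platform, 10 were tested and 6 were above 0, with Lamtor1 at 0.34 (SE 0.42) and Tfec, a relative of TFEB, at -0.20 (SE 0.66). Tfeb itself was detected on no array, while its relatives Tfe3 and Mitf were tested, with differences of 0.14 (SE 0.38) and 0.21 (SE 0.41). In the list for delivery to lysosomes 15 were tested and 10 were above 0. Arl8a, a small GTPase of lysosome transport, had 0.64 (SE 0.28), with an unadjusted limma p of 0.0544, an adjusted p of 0.9992 and groups that did not overlap. M6pr, the cation-dependent mannose 6-phosphate receptor, had -1.67 (SE 1.18), with C5a 3 at a level of -5.41 and the other 5 samples between -1.09 and -0.51.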

How the data were processed

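Scanner files made by Agilent Feature Extraction 10.10.1.1, per the file headers, hold a background-subtracted processed signal per spot. This deposited intensity is not scaled between arrays and comes with flags for spots well above background. The deposited series table holds log2 values, 98.9% of whose differences between arrays lay within 0.01 of the scanner values scaled over all probes, and served as an alternative; the baseline subtracted from each of its probes is unknown.

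Control spots and spots marked as outliers (112 to 138 per array) were left out, and the log2 signals of a probe's remaining spots were averaged. Each array was scaled to its 75th percentile over 2370 probes, those detected on all 6. Probes well above background on at least 3 arrays were kept (4958), with the brightest one per gene. Probes were named by RefSeq accession through RefSeq genes of GRCm38.p6, with a match for 32994 of 56605 probes, so 3276 of the 4488 tested genes carry a symbol. Groups were compared with limma 3.58.1 in R 4.3.3 (lmFit and eBayes, Benjamini-Hochberg over all genes, threshold 0.05). The same fit was also run on simulated data. The simulated noise had no link by replicate number, and the planted changes were larger than the differences of the tested lysosomal genes. That run therefore does not show how the fit does on changes as small as theirs. Precision is limited by the number of arrays.

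Same-numbered samples correlated in their deviations from the group means (0.211, 0.269 and 0.384 for numbers 1 to 3). All lay above the values between different numbers, so the numbers, which come from the labels, were taken to pair the samples. The labels do not say what a shared number means, and the pairing rests on the same values that were then tested. Array signal had the same order of numbers in both groups, and its part in these correlations was not tested. The genes and lists were chosen with earlier results of these data known. Full statistics are given for members with an unadjusted p under 0.05, with groups that did not overlap or among the 2 smallest p-values in each direction, and, per further list, for the gene in each direction with the smallest p, except a gene not reported here. Alternatives were scaling over all probes, the deposited table, normexp correction (offset 50), quantile normalization, both settings of the dim-probe filter, the outlier spots, the probe summary, the replicate block, the slide row and each sample left out. All arrays lay on 1 slide, untreated 1 to 3 and C5a 1 in row 1 and C5a 2 and 3 in row 2.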

Additional observations from a re-analysis of the deposited data

How the results depend on the processing

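No lysosomal gene was called under any alternative run. With the replicate block the median difference of the 29 genes was -0.04 and 0 were called, and the block changed no call. Scaling over all probes moved that median to 0.33 (all genes 0.40), and the deposited table, scaled the same way, to 0.32 (all genes 0.40). The number of lysosomal genes whose groups did not overlap, 4 of 29, was 0 under each of these (1.11% of all genes in both), 2 with normexp correction (2.76%) and 2 of 20 when a probe had to be well above background on all 6 arrays (4.40%). Leaving out 1 sample gave 4 to 8 of 29, against 12.5% to 17.9% of all genes, with 4 without C5a replicate 1 and 8 without untreated replicate 3 (15.0% of all genes in both). Without the filter on dim probes 47 of 46522 genes were called (293 at an unadjusted limma p under 0.05), 0 of them lysosomal genes of the 32. The groups of 5 of the 32 did not overlap in that setting, against 2.7% of all genes. The difference of Neu1 was -0.09 with normexp correction. Of the 29 differences 5 (Npc1, Gla, Laptm5, Laptm4a and Atp6v0d1) kept their sign under every alternative in which they were fitted, and 20 turned in at least 1 fit with a sample left out. The causes of these shifts were not tested. Detection limits the rest: Gusb, Mcoln1 and Atp6ap1 were below the filter. With 3 arrays a group, differences under about 1.73-fold were within the median interval, which is not adjusted for the number of genes. Laptm4a, at 1.82-fold lower, was not called either.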
